A study of Mus musculus with 24 samples.

Results

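The coagulation and complement genes described here were 36 genes of the blood clotting cascade, its inhibitors, fibrinolysis and the complement system, picked by name from the annotation of the array. For 35 of the 36 a probe set annotated to 1 gene symbol was measured, out of 18193 genes in all, and Cpb2 was not analysed here. Where a gene had several probe sets, the one with the highest mean over the 24 arrays stood for it.

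Most plasma proteins of both systems are made and secreted by hepatocytes. In coagulation, a chain of serine proteases and cofactors ends in thrombin, which turns fibrinogen into fibrin. Protein C, protein S, antithrombin and heparin cofactor II restrain that chain, and plasmin dissolves the clot. Complement is started by antibody, by mannose-binding lectins or by the alternative pathway, converges on C3 and C5, and ends in a pore assembled from C5b to C9.

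Affymetrix arrays, 1 per liver, were run for 24 male mice of the BALB/c strain, which were 6 weeks old on arrival and ate the study diets for 14 days. Control mice ate AIN93G, a purified diet for rodents, and the mice of 3 other groups ate AIN93G with quercetin, a plant flavonol, at 0.1%, at 0.5% or at 1.0%, with 6 mice in each of the 4 groups. The labels name no altered genotype, and all mice had eaten a standard chow before the purified diet. Cages held 3 mice each, and the part of the cage in any result was not tested because the cage of a mouse was not used here. Values are log2(intensity + 1) after quantile normalization between arrays, and the comparison asks whether transcripts of secreted hepatic proteins differ with the dose.

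The raw array medians, in linear intensity before the log2 step, ran from 4.78 to 7.58. Correlations between arrays over all genes ran from 0.920 to 0.953. Of 8 hepatocyte markers, 7 were measured, at mean levels between 10.38 for Tat and 13.28 for Apoa1. On the first principal component of all genes, which held 9.15% of the variance, 4 arrays stood apart from the other 20. They were replicates 4 and 6 of the 0.5% group and replicates 4 and 5 of the 1.0% group, and results that rest on them are given with and without them. In whole liver, fewer cells of a type and less RNA per cell cannot be told apart.

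The signal of these genes was bright and varied little between mice. Probe sets of 33 of the 35 genes were brighter than 90% of genes, and the median member had a level of 10.01, against 3.60 over all genes. The exceptions were Pros1, which encodes protein S and is also made outside hepatocytes, at 5.92, and Cfp, which encodes properdin and is mainly a product of myeloid cells, at 5.12. Brightness depends on the probes, so these levels do not rank the transcripts. The median SD within diets was 0.131, against 0.502 over all genes and 0.258 over the 9096 genes brighter than the median gene. An SD over genes of like level is not given, so the part of brightness in this small spread was not tested. C4bp, F2 and F9 had the smallest SDs, at 0.063, 0.064 and 0.067, and Cfp had the largest, at 0.398, followed by C2 at 0.273 and C6 at 0.271.

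**Figure D1:**
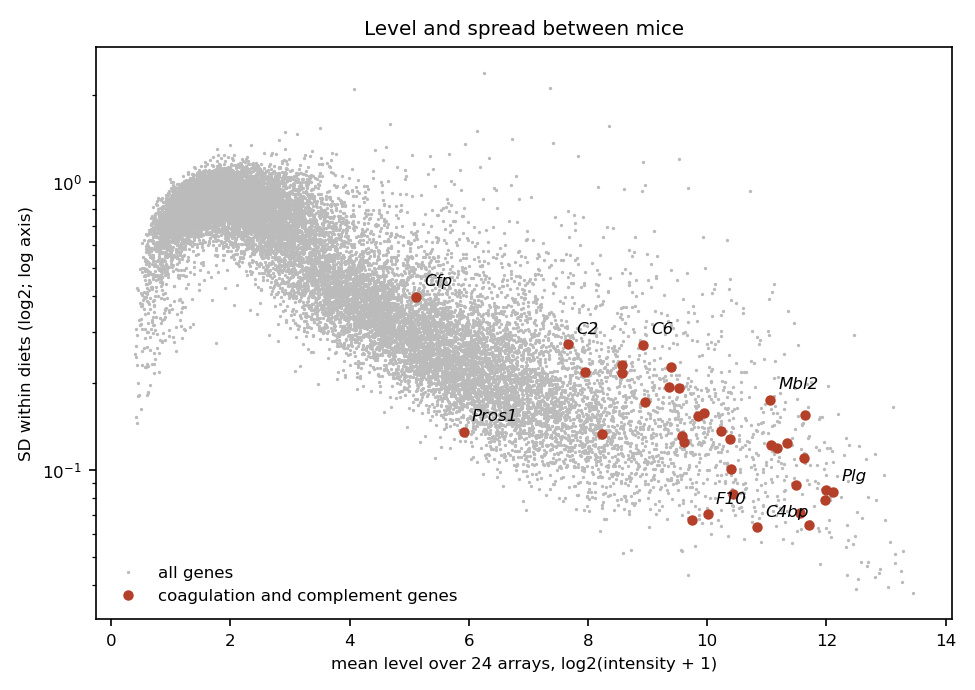
Mean level over the 24 arrays (x axis, log2 of intensity + 1) against the SD between mice within diets (y axis, log scale) for all 18193 genes (grey) and the 35 coagulation and complement genes (red). The members lie at the bright end with a median SD of 0.131, against 0.502 for all genes, and Pros1 and Cfp are the dimmest of them.

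None of the 35 genes passed the test at any dose, and most lay slightly below control at the higher doses. With limma over all 18193 genes and a Benjamini-Hochberg adjusted p of 0.05, 0 members passed at 0.1%, where 0% of all genes did, 0 at 0.5%, against 0.0165%, and 0 at 1.0%, against 0.022%. At an unadjusted p under 0.05, 0 members were called at 0.1%, against 5.11% of all genes, 2 at 0.5% (F12 and Cfb), against 7.65%, and 2 at 1.0% (F10 and Mbl2), against 8.92%. Counts of 0 to 2 among 35 genes lie near these background shares. The test of any difference among the 4 diets called 0 members, where 0.181% of all genes passed, and the slope over dose called 0, where 0.0989% passed. At an unadjusted p under 0.05 the slope called 5 members (F10, F12, Cfb, Mbl2 and C2), against 10.9% of all genes. All 5 were negative, where 6.05% of all genes had a negative slope at that p. The test of any difference called 1, F10, against 9.49%.

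Under quantile normalization, and with the mice of a diet taken as independent, the intervals give a range for each difference. At 0.1% the 95% interval of the difference from control lay within 1.5-fold in either direction for all 35 genes, and within 1.2-fold for 22. At 0.5% it lay within 1.5-fold for 34, all but C6, and within 1.2-fold for 17. At 1.0% it lay within 1.5-fold for 34, all but C2, and within 1.2-fold for 17. These intervals are not adjusted for the number of genes. They do not cover the choice of scaling, which moved the median difference of the members, or the sharing of cages by mice.

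**Figure D2:**
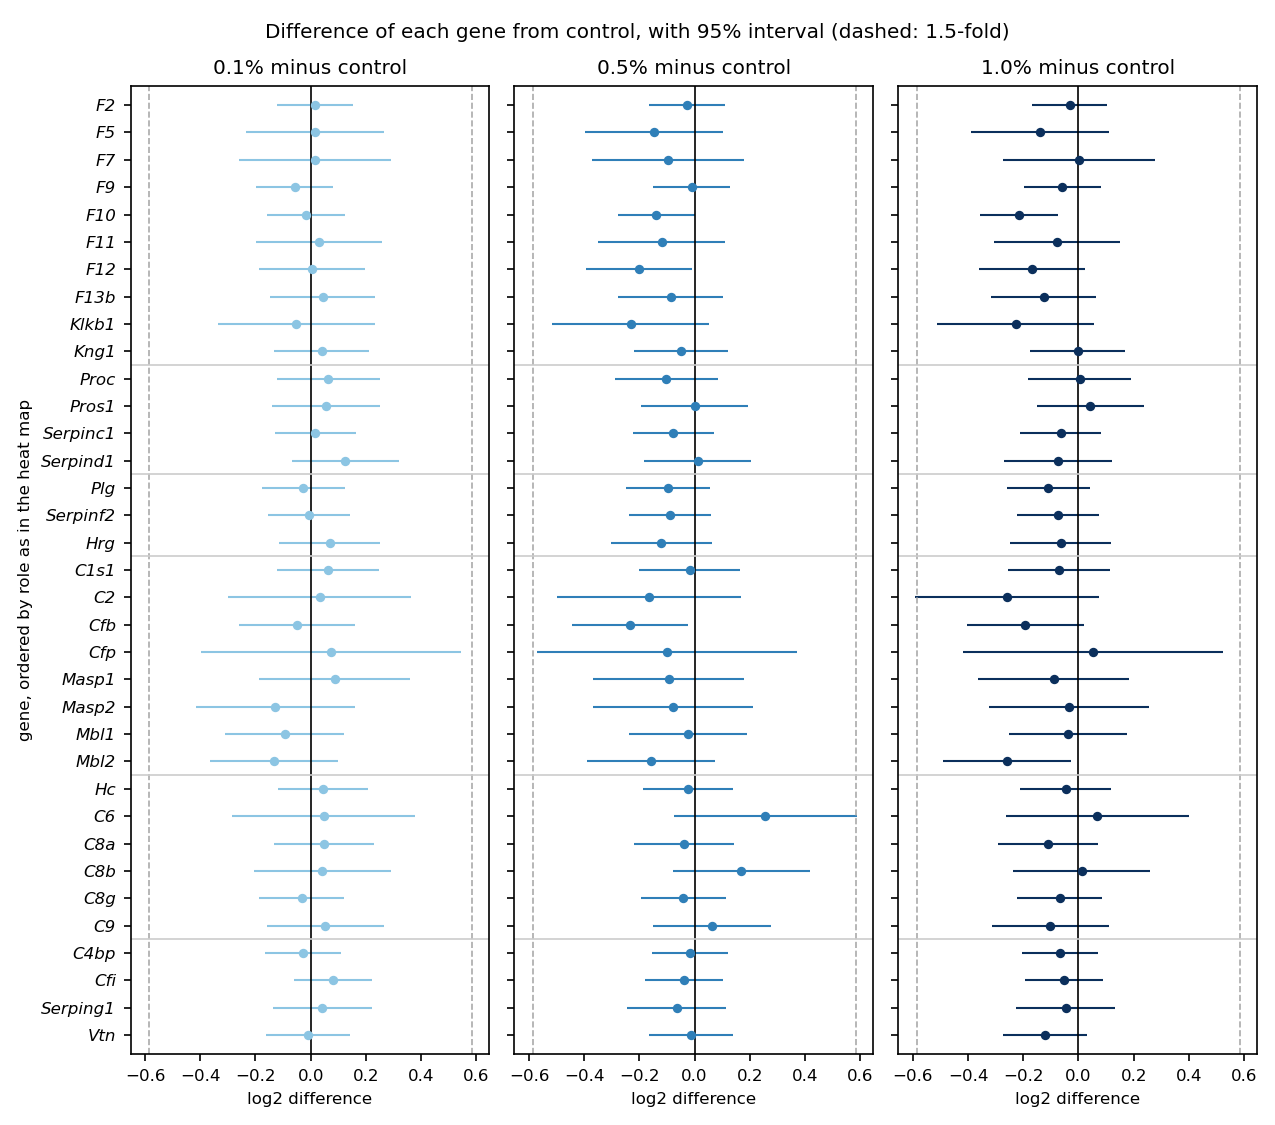
Difference from control in log2 units (x axis) for each of the 35 genes (y axis, ordered by role) at 0.1%, 0.5% and 1.0% quercetin, with the 95% interval from limma as a bar and 1.5-fold as dashed lines. At 0.5% the interval of C6 alone crosses a dashed line, and at 1.0% that of C2 alone.

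At 0.1% quercetin 12 of the 35 genes lay below control, against 47.7% of all genes, with a median difference of 0.030, against 0.012 over all genes. At 0.5%, 30 lay below control, against 53.4% of all genes, with a median of -0.077, against -0.021. At 1.0%, 29 lay below control, against 51.6% of all genes, with a median of -0.068, against -0.0099. The slope was negative for 30 of 35, against 52.4% of all genes, with a median of -0.097 per 1.0% quercetin. All 3 comparisons and the slope share the control mice. Among the genes brighter than the median gene, 56.8% lay below control at 0.5% and 55.2% at 1.0%.

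These counts rested on a few arrays and on the scaling. Without the 4 arrays that stood apart, 25 of 35 lay below control at 0.5%, with a median of -0.021, and 18 at 1.0%, with a median of -0.0092. Leaving out only replicate 6 of the 0.5% group gave a median of -0.038 at 0.5%, and leaving out only replicate 4 of the 1.0% group gave -0.043 at 1.0%. Without normalization between arrays, 2, 1 and 25 of 35 lay below control at 0.1%, 0.5% and 1.0%, where the median of all genes itself shifted by 0.111, 0.146 and 0.054. Measured from that shift, 16, 20 and 32 lay below. With arrays centred on their medians, 21, 9 and 35 lay below control, so the direction of most members at 0.1% and 0.5% turned with the scaling, and at 1.0% it did not.

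Array by array, the median deviation of the 35 genes from the control mean ran from -0.048 to 0.026 in control livers and from -0.048 to 0.051 at 0.1%. At 0.5% it was -0.025, -0.087, -0.040, -0.114, 0.0083 and -0.130 in replicates 1 to 6. At 1.0% it was 0.024, 0.017, 0.025, -0.190, -0.198 and -0.085, and in those livers 14, 16, 15, 32, 32 and 28 of the 35 genes lay below the control mean. At 1.0%, replicates 1 to 3 lay within the control range and replicates 4 to 6 below it. What sets these replicates apart was not tested.

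**Figure D3:**
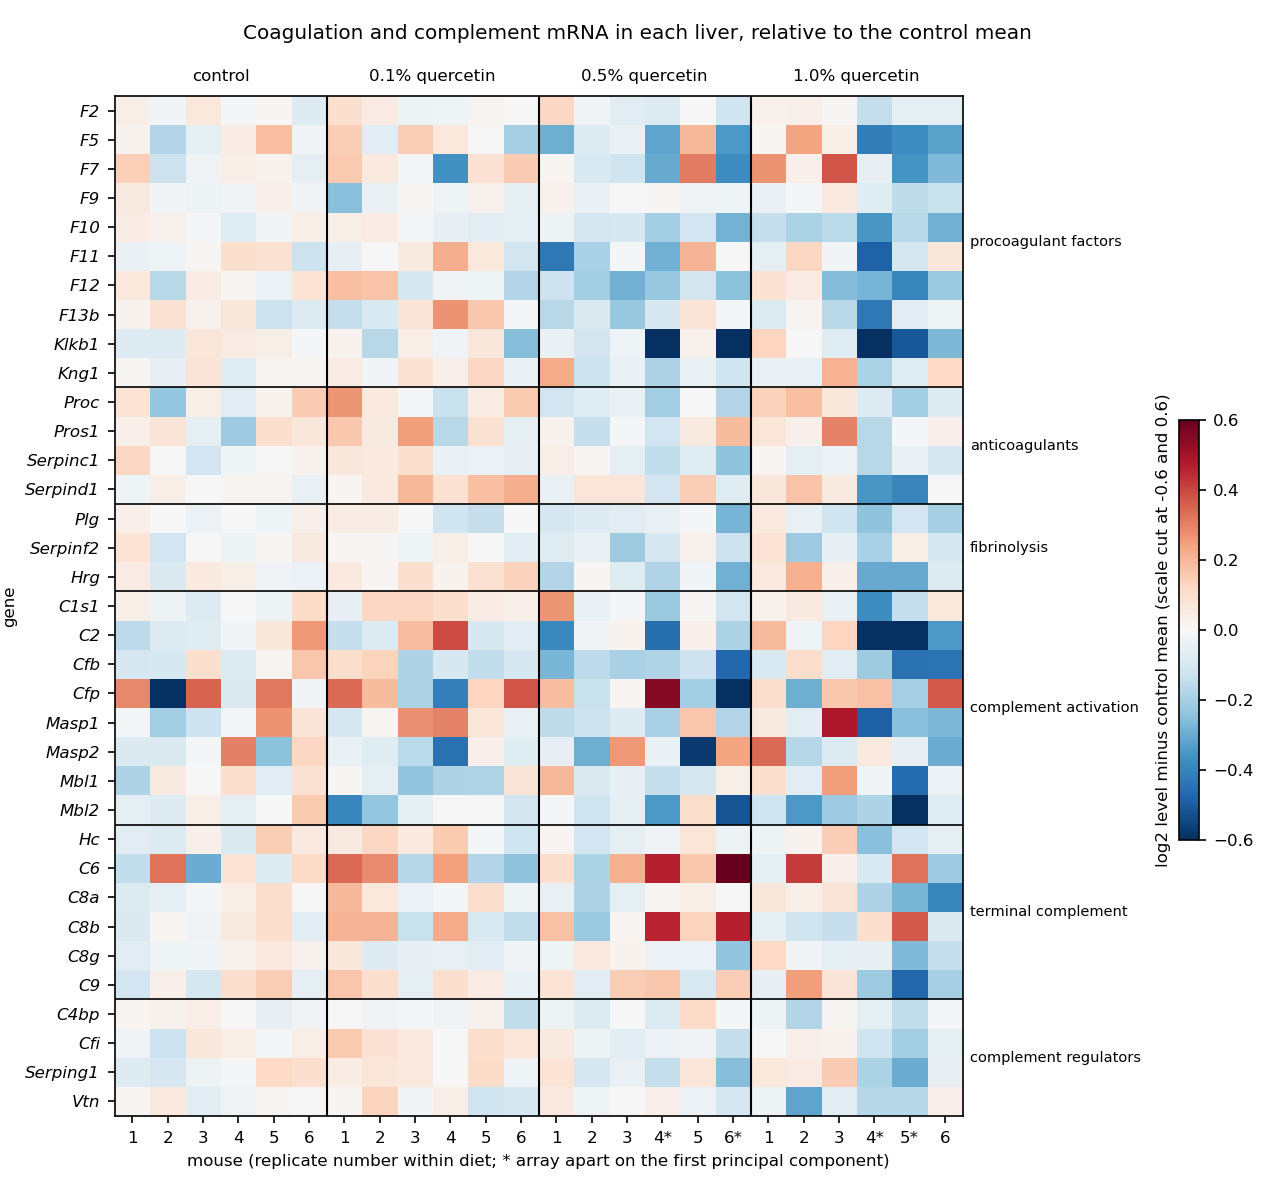
Level of each of the 35 genes (rows, grouped by role) in each of the 24 livers (columns, grouped by diet) minus its control mean, in log2 units, blue for lower and red for higher. An asterisk marks the 4 arrays apart on the first principal component, and the columns of replicates 4 and 5 at 1.0% are blue for 32 of 35 genes each.

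The procoagulant group comprised prothrombin (F2), factor V (F5), the cofactor with which activated factor X acts on prothrombin, the other proteases of the cascade (F7, F9, F10, F11, F12), the factor XIII B subunit (F13b), prekallikrein (Klkb1) and kininogen (Kng1). Of these 10 genes, 3 lay below control at 0.1%, 10 at 0.5% and 9 at 1.0%, with medians of 0.015, -0.107 and -0.102, and 0 passed.

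F10 encodes factor X, whose active form converts prothrombin to thrombin, and it had the smallest p of the 35 genes at 1.0%. Its lowest, median and highest levels were 10.02, 10.11 and 10.14 in control livers, 10.03, 10.07 and 10.15 at 0.1%, 9.82, 9.99 and 10.07 at 0.5%, and 9.75, 9.92 and 9.96 at 1.0%. All 6 livers at 1.0% lay below all 6 control livers and below all 6 livers at 0.1%, while the 0.5% livers overlapped every other group. Groups without overlap were found for 0.797% of all genes at 1.0% against control and for 1.06% at 1.0% against 0.1%, and F10 was the only member in either comparison. No member was without overlap at 0.1% against control, where 0.39% of all genes were, or at 1.0% against 0.5%, where 0.286% were. The difference at 1.0% was -0.22 on the log2 scale (SE 0.07), a ratio of 0.861 with a 95% interval from 0.780 to 0.949, with an unadjusted p of 0.0043 and an adjusted p of 0.365 in limma. Without the 4 arrays it was -0.20 (SE 0.07), with an adjusted p of 0.458 in limma.

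The slope of F10 over the 4 doses was -0.22 per 1.0% quercetin (SE 0.06), with an adjusted p of 0.126 in limma. That call depended on the setting: the adjusted p was 0.0301 with a pseudocount of 16, 0.0258 when only the brighter 9096 genes were tested, and 0.0246 with an intensity trend and robust eBayes. It was 0.270 without the 4 arrays. The array held 3 probe sets for F10, with differences at 1.0% of -0.22, -0.27 and -0.29, none of which passed after adjustment.

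F7, which encodes the factor VII protease that activates factor X, neighbours F10 on chromosome 8 of the mouse. At 1.0% its difference was 0.0018, with a 95% interval from -0.27 to 0.28, and its levels ran from 7.61 to 8.34, against 7.84 to 8.10 in control livers. The spread of F7 at 1.0% was thus wider than in control livers, with values on both sides. The 250 bases upstream of the start of each gene in RefSeq (assembly GRCm38.p6) are shown to set these neighbours side by side. They lie at chr8:13037058-13037307 for F10 and chr8:13025784-13026033 for F7, both on the plus strand. No capitals appear, because none of the 5 motifs named below was found in either window. Only the exact letters of each motif were searched, so variants of a site are not marked. The stretch tgacctttg in the F7 window, for example, is close to the HNF4 motif TGNACTTTG but was not counted.
F10: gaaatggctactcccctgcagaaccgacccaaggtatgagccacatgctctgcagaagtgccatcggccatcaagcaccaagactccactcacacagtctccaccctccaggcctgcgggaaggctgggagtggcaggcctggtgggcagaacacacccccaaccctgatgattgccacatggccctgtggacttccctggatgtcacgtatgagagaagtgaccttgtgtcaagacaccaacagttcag
F7: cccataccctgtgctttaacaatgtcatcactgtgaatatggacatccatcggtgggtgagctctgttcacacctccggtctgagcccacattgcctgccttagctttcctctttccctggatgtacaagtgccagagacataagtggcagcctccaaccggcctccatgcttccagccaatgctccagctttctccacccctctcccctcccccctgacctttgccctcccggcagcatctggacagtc

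F12 encodes factor XII, the protease that starts contact activation. Its lowest, median and highest levels were 8.17, 8.36 and 8.42 in control livers, 8.16, 8.31 and 8.51 at 0.1%, 8.05, 8.12 and 8.22 at 0.5%, and 7.94, 8.09 and 8.42 at 1.0%. The livers at 0.5% overlapped the controls through 1 low control liver, and those at 1.0% spanned the control range. The difference was -0.20 at 0.5% (SE 0.09, unadjusted p = 0.0416, adjusted p = 0.636 in limma) and -0.17 at 1.0% (SE 0.09, adjusted p = 0.630 in limma). Without normalization between arrays the difference at 0.5% was 0.027. Leaving out the 4 arrays gave -0.18 at 0.5% and -0.086 at 1.0%.

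**Figure D4:**
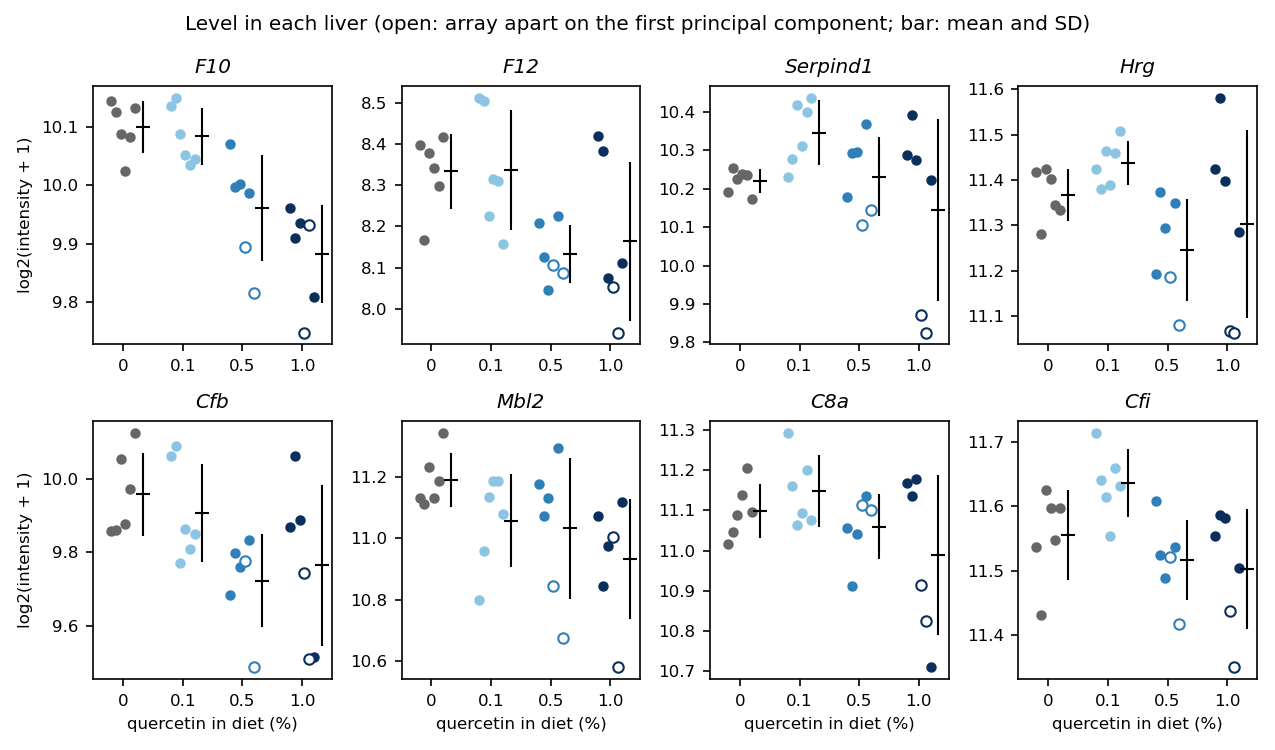
Level in each liver, as log2(intensity + 1) on the y axis of each panel with its own range, against quercetin in the diet (x axis) for F10, F12, Serpind1, Hrg, Cfb, Mbl2, C8a and Cfi. Points are single livers, open where the array stood apart on the first principal component, and bars are the mean and SD of 6. The 1.0% livers lie wholly below the control livers for F10, at 9.75 to 9.96 against 10.02 to 10.14.

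Klkb1, which encodes prekallikrein, the partner of factor XII in contact activation, was chosen for description after its values were seen. It lay at 8.93 and 8.89 in replicates 4 and 6 of the 0.5% group, and between 9.42 and 9.56 in the other 4 livers of that group. At 1.0% it lay at 8.89 and 9.02 in replicates 4 and 5, and between 9.26 and 9.66 in the other 4, while control livers ran from 9.45 to 9.60. The 4 lowest values were thus those of the 4 arrays that stood apart. Values below all control livers also came from replicate 6 at 1.0% (9.26), replicate 2 at 0.5% (9.42) and replicates 2 and 6 at 0.1% (9.36 and 9.27). The difference at 1.0% was -0.23 with the 4 arrays (SE 0.14, adjusted p = 0.671 in limma). Without the 4 arrays it was -0.053 (SE 0.09, adjusted p = 0.926 in limma). F11, its neighbour on chromosome 8 and the factor XI gene, had a difference of -0.078 at 1.0%, with a 95% interval from -0.31 to 0.15.

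The rest of the procoagulant group had intervals at 1.0% that included 0. Prothrombin differed by -0.032, with a 95% interval from -0.17 to 0.11, and kininogen by -0.0031, with an interval from -0.17 to 0.17. F9, the factor IX gene mutated in haemophilia B, differed by -0.059, with an interval from -0.20 to 0.080. F5 differed by -0.14, with the wider interval of -0.39 to 0.11, and F13b by -0.13, with an interval from -0.32 to 0.065.

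Of the 4 anticoagulant genes, all 4 lay above control at 0.1%, 2 at 0.5% and 2 at 1.0%, with medians of 0.060, -0.039 and -0.029, and none passed. Serpind1 encodes heparin cofactor II, an inhibitor of thrombin. Its lowest, median and highest levels were 10.17, 10.23 and 10.25 in control livers, 10.23, 10.35 and 10.44 at 0.1%, 10.11, 10.24 and 10.37 at 0.5%, and 9.83, 10.25 and 10.39 at 1.0%. Most 0.1% livers were higher than the controls, and the 2 lowest values at 1.0%, 9.83 and 9.87, were those of replicates 5 and 4. The difference was 0.13 at 0.1% (SE 0.09, adjusted p = 0.997 in limma). Between 1.0% and 0.1% it was -0.20 (SE 0.09, unadjusted p = 0.0448, adjusted p = 0.513 in limma). The 1.0% livers other than replicates 4 and 5, which are among the 4 arrays that stood apart, lay between 10.22 and 10.39. At 1.0% against control the difference was -0.074 with all arrays and 0.074 without the 4 arrays.

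Serpinc1, the antithrombin gene, differed from control by -0.064 at 1.0%, with a 95% interval from -0.21 to 0.083. Proc, which encodes protein C, differed by 0.0053, with an interval from -0.18 to 0.19, and Pros1, which encodes its cofactor protein S, by 0.042, with an interval from -0.15 to 0.24.

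For fibrinolysis 3 of 4 genes were measured, and 2 of the 3 lay below control at 0.1% and all 3 at 0.5% and 1.0%, with medians of -0.0060, -0.097 and -0.074 and none passing. Plg encodes plasminogen, the precursor of plasmin, and differed by -0.11 at 1.0%, with a 95% interval from -0.26 to 0.041. Serpinf2, which encodes the plasmin inhibitor alpha-2-antiplasmin, differed by -0.074, with an interval from -0.22 to 0.076.

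Hrg encodes histidine-rich glycoprotein, a plasma protein that binds plasminogen, heparin and fibrinogen. Its lowest, median and highest levels were 11.28, 11.37 and 11.42 in control livers, 11.38, 11.44 and 11.51 at 0.1%, 11.08, 11.24 and 11.37 at 0.5%, and 11.06, 11.34 and 11.58 at 1.0%. The 0.5% livers lay wholly below the 0.1% livers. Between these doses 1.24% of all genes had groups without overlap, in either direction, and Hrg was the only member among them. That difference was -0.19 (SE 0.09, unadjusted p = 0.0414, adjusted p = 0.476 in limma). Against control the difference at 1.0% was -0.064, with a 95% interval from -0.25 to 0.12.

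Complement activation was represented by the mannose-binding lectins (Mbl1, Mbl2), their proteases (Masp1, Masp2), the C1s protease (C1s1), C2, factor B (Cfb) and properdin (Cfp). Of these 8 genes, 4 lay below control at 0.1%, 8 at 0.5% and 7 at 1.0%, with medians of -0.0089, -0.097 and -0.080, and none passed.

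Mbl2 encodes mannose-binding lectin C, which recognizes microbial sugars. Its lowest, median and highest levels were 11.11, 11.16 and 11.35 in control livers, 10.80, 11.11 and 11.19 at 0.1%, 10.67, 11.10 and 11.29 at 0.5%, and 10.58, 10.99 and 11.12 at 1.0%. All groups overlapped the controls, at 1.0% only just. The difference was -0.26 at 1.0% (SE 0.11, unadjusted p = 0.0305, adjusted p = 0.507 in limma), a ratio of 0.836 with a 95% interval from 0.712 to 0.982. Without the 4 arrays it was -0.19 (SE 0.09, adjusted p = 0.638 in limma). Its relative Mbl1 differed by -0.038 at 1.0%, with an interval from -0.25 to 0.18.

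Cfb encodes factor B, the protease of the alternative pathway convertase, and C2 the matching protease of the classical and lectin pathways. They neighbour each other on chromosome 17. Cfb had lowest, median and highest levels of 9.86, 9.92 and 10.13 in control livers, 9.77, 9.86 and 10.09 at 0.1%, 9.49, 9.77 and 9.83 at 0.5%, and 9.51, 9.81 and 10.06 at 1.0%. All 6 livers at 0.5% lay below all 6 control livers, while the 1.0% livers overlapped the controls. At 0.5% against control 0.456% of all genes had groups without overlap, in either direction, and Cfb was the only member among them. The difference at 0.5% was -0.23 (SE 0.10, unadjusted p = 0.0312, adjusted p = 0.603 in limma), and at 1.0% it was -0.19 (SE 0.10, adjusted p = 0.619 in limma). Leaving out the 4 arrays gave -0.19 and -0.12, with adjusted p of 0.969 and 0.813 in limma.

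C2 differed from control by -0.26 at 1.0%, with a 95% interval from -0.59 to 0.073, and by -0.014 without the 4 arrays. Its lowest values, 6.88 and 7.14, were those of replicates 5 and 4 of the 1.0% group, against 7.60 to 8.02 in control livers. C1s1 differed by -0.070 at 1.0%, Masp1 by -0.090 and Masp2 by -0.034, with intervals that all included 0. The other probe set of Masp2 differed by -0.25 at 1.0% and by 0.27 at 0.1%, where the one used differed by -0.13, and neither passed.

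Cfp was the dimmest and most variable member, with levels from 4.82 to 5.48 at 1.0%, against 4.26 to 5.47 in control livers, and a difference of 0.053, with a 95% interval from -0.42 to 0.52. Because properdin comes mainly from myeloid cells, the neutrophil markers were set beside it. Of all genes 51.6% lay below control at 1.0%, while of 9 neutrophil markers 8 were measured, 8 lay above control and 0 passed. Their summed intensity ran from 55.4 to 76.8 in control livers, from 73.8 to 91.6 at 0.1%, from 64.6 to 339 at 0.5% and from 66.9 to 143 at 1.0%, with Camp, Ltf, Mpo, Elane and Csf3r dimmer than the median gene. The summed Kupffer cell markers, 8 of 8 measured, ran from 889 to 1043 in control livers, from 984 to 1056 at 0.1%, from 846 to 969 at 0.5% and from 805 to 994 at 1.0%, with Marco dimmer than the median gene. The part of these cells in the level of Cfp was not tested.

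The terminal pathway genes encode C5 (Hc), C6, the 3 chains of C8 (C8a, C8b, C8g) and C9, which together build the membrane pore. Of these 6 genes, 1 lay below control at 0.1%, 3 at 0.5% and 4 at 1.0%, with medians of 0.046, 0.020 and -0.057. None passed, and the difference of this group from the other groups was not tested.

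C8a encodes the alpha chain of C8. Its lowest, median and highest levels were 11.02, 11.09 and 11.21 in control livers, 11.06, 11.13 and 11.29 at 0.1%, 10.91, 11.08 and 11.14 at 0.5%, and 10.71, 11.03 and 11.18 at 1.0%. The livers at 1.0% lay in 2 sets, replicates 6, 5 and 4 at 10.71, 10.83 and 10.92 and replicates 1 to 3 between 11.14 and 11.18. Of the low set, replicates 4 and 5 are among the 4 arrays that stood apart, and replicate 6 is not. The difference at 1.0% was -0.11 (SE 0.09, adjusted p = 0.770 in limma).

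C8b and C6, chosen for description after their values were seen, had their highest values at 0.5% in the arrays that stood apart. C8b, which encodes the beta chain of C8, lay at 9.92 and 9.93 in replicates 4 and 6 of the 0.5% group, and between 9.24 and 9.64 in the other 4. At 1.0% it lay at 9.57 and 9.83 in replicates 4 and 5, and between 9.33 and 9.41 in the other 4, while control livers ran from 9.38 to 9.57. C6, which joins C5b in the nascent pore, lay at 9.31 and 9.62 in the same 0.5% replicates and between 8.65 and 9.05 in the other 4. At 1.0% it lay at 8.75 and 9.16 in replicates 4 and 5, within the range of the other 4, 8.62 to 9.26. At 0.5% C6 differed from control by 0.26 (SE 0.16, adjusted p = 0.737 in limma) and by 0.071 without the 4 arrays. C8b differed by 0.17 at 0.5% (SE 0.12, adjusted p = 0.761 in limma) and by 0.024 without them.

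The windows of 250 bases upstream of C8a and C8b in RefSeq (assembly GRCm38.p6) are shown because these neighbours on chromosome 4 had unlike values in those arrays and both hold an HNF1 motif. C8a lies on the minus strand, with its window at chr4:104876399-104876648, and C8b on the plus strand, at chr4:104766067-104766316. Capitals mark motif matches on either strand. In C8a they mark the STAT motif at bases -228 to -220 and GTTAAT at -107 to -102 from the start. In C8b they mark GTTAAT, read on the other strand, at -206 to -201.
C8a: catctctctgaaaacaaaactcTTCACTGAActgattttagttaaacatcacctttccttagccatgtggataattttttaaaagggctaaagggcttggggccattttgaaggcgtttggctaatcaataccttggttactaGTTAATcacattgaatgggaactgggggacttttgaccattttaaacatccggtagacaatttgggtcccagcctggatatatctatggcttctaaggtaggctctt
C8b: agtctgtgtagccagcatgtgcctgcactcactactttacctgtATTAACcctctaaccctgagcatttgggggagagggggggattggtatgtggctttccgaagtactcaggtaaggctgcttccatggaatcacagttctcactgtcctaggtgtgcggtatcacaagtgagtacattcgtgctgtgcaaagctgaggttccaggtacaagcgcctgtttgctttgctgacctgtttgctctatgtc

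Promoter windows were matched for 28 of the 36 members. HNF1, HNF4, C/EBP and FOXA are liver transcription factors, and STAT proteins carry cytokine signals to acute phase genes. On both strands of the 250 bases, GTTAAT (a part of the HNF1 site) was found for 7 of 28 members (25.0%), against 6.52% of 27025 promoters. TNTTTAC (FOXA) was found for 7 (25.0%), against 10.9%, and TTGCNNAA (C/EBP) for 6 (21.4%), against 9.55%. TTCNNNGAA (STAT) was found for 4 (14.3%), against 7.18%, and TGNACTTTG (HNF4) for 1, F9 (3.57%), against 1.21%. FOXA and C/EBP motifs were both present upstream of F11, Klkb1 and Hrg. No overlap between matches of different motifs was removed, and a match describes letters in this window, not a bound factor. Sites that vary from these letters were not counted.

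C8g, C9 and Hc completed the terminal group. At 1.0% C9, the pore-forming protein itself, differed from control by -0.10, with a 95% interval from -0.31 to 0.11, C8g by -0.068, with an interval from -0.22 to 0.086, and Hc by -0.047, with an interval from -0.21 to 0.12. Between 1.0% and 0.5%, C9 had the smallest p of the 35 genes, with a difference of -0.16 (SE 0.10, adjusted p = 0.866 in limma).

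The complement regulators were C4bp, the C4b-binding protein, factor I (Cfi), which cleaves C3b and C4b, the C1 inhibitor (Serping1), which also restrains the contact system, and vitronectin (Vtn), which binds the forming pore. Of these 4 genes, 2 lay below control at 0.1%, 4 at 0.5% and 4 at 1.0%, with medians of 0.017, -0.028 and -0.060, and none passed. Cfi had lowest, median and highest levels of 11.43, 11.57 and 11.63 in control livers, 11.55, 11.64 and 11.71 at 0.1%, 11.42, 11.52 and 11.61 at 0.5%, and 11.35, 11.53 and 11.59 at 1.0%. The groups overlapped throughout, and the 0.1% livers reached the highest values. Cfi differed from control by 0.080 at 0.1% (SE 0.07, adjusted p = 0.997 in limma) and by -0.054 at 1.0% (SE 0.07, adjusted p = 0.872 in limma). Vtn differed by -0.12 at 1.0%, with a 95% interval from -0.27 to 0.031, C4bp by -0.066, with an interval from -0.20 to 0.071, and Serping1 by -0.046, with an interval from -0.23 to 0.13.

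Set against the lowest dose, the higher doses also gave small differences. At 1.0% against 0.1%, 32 of 35 genes lay lower, against 52.9% of all genes, with a median of -0.091, and 0 passed, against 0.253% of all genes. At an unadjusted p under 0.05, 2 were called (F10 and Serpind1), against 9.42%. At 0.5% against 0.1%, 28 lay lower, against 54.7% of all genes, and 0 passed, against 0.214%, with 2 at an unadjusted p under 0.05 (F12 and Hrg), against 10.1%. At 1.0% against 0.5%, 19 lay lower, against 48.6% of all genes, and 0 passed, against 0.022%, with 0 at an unadjusted p under 0.05, against 6.19%. F10 differed by -0.20 between 1.0% and 0.1% (SE 0.07, unadjusted p = 0.0074, adjusted p = 0.315 in limma). With the 4 arrays left out, 25, 26 and 13 of 35 genes lay lower in these 3 comparisons, with medians of -0.024, -0.041 and 0.017. The 2 comparisons against 0.1% share those mice.

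Between mice of one diet, pairs of these transcripts correlated more often positively than negatively. Over the 595 pairs of the 35 genes, the median Pearson correlation of deviations from the diet mean was 0.249 over 24 arrays, and 463 pairs were positive, with 16 above 0.7 and 6 below -0.5. Without the 4 arrays the median was 0.120 and 386 pairs were positive, with 1 above 0.7 and 10 below -0.5. Serpind1 and Hrg correlated at 0.893 with all arrays and at 0.684 without the 4, and F10 and Serpinc1 at 0.844 and 0.699. Hrg and C8b ran opposite, at -0.711 and -0.477. The pairs share the arrays and their scaling, so these values describe these livers only.

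No pair of neighbouring genes correlated above 0.7. With all arrays and without the 4, F7 and F10 correlated at 0.450 and 0.383, F11 and Klkb1 at 0.437 and 0.247, C2 and Cfb at 0.462 and 0.334, and C8a and C8b at 0.099 and 0.357. C6 and C8b, which lie apart, correlated at 0.699 and 0.603.

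**Figure D5:**
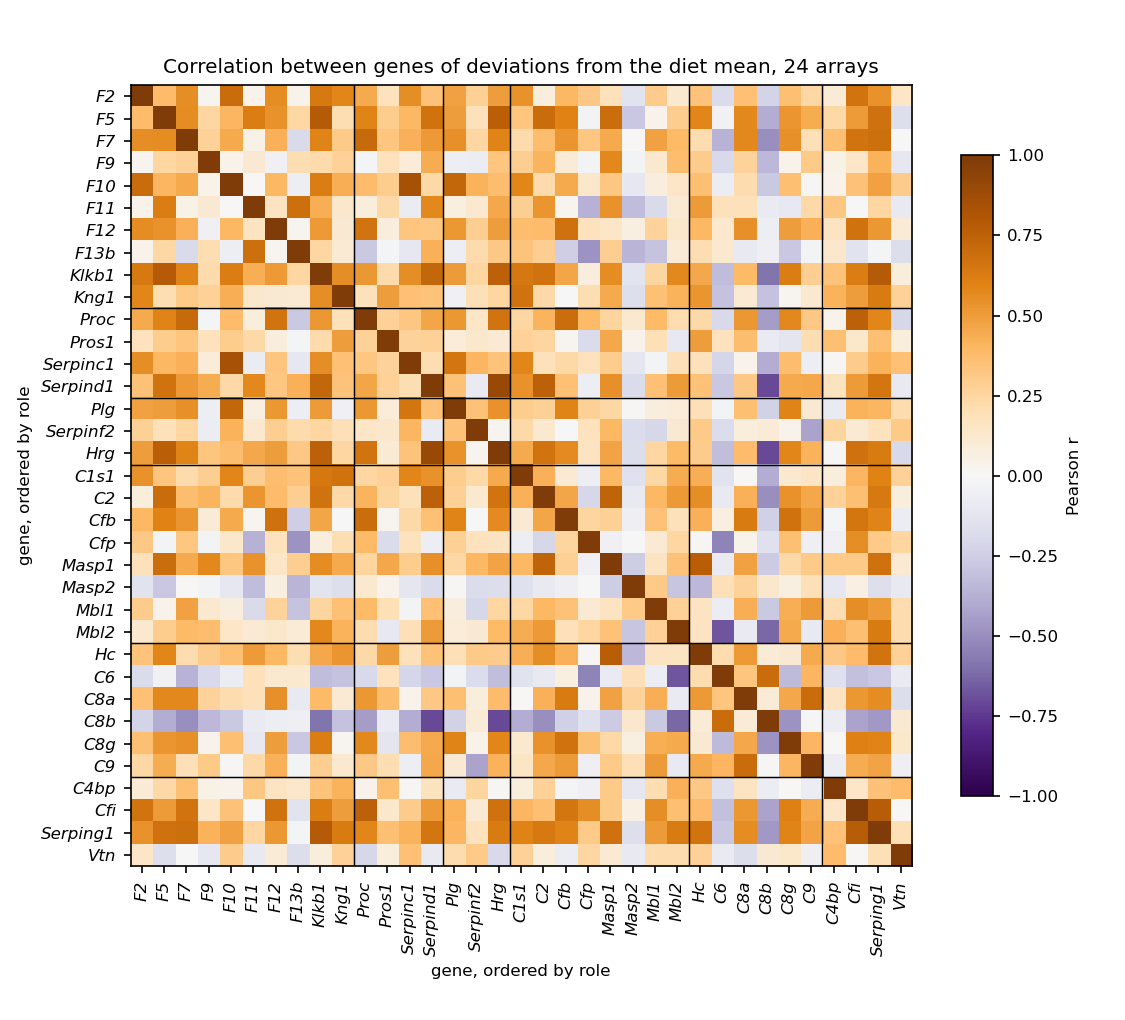
Pearson correlation between each pair of the 35 genes (both axes, ordered by role) of deviations from the diet mean over 24 arrays, purple for negative and orange for positive. Most cells are orange, with a median of 0.249, and the rows of C6 and C8b hold many of the purple cells.

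Of 25 other coagulation genes, 23 were measured and 0 passed at 1.0%, with 13 above and 10 below control. Fga, Fgb and Fgg, which encode the fibrinogen chains, differed from control by 0.095, 0.036 and 0.051 at 1.0%. The smallest p values belonged to Lman1, the cargo receptor for factors V and VIII, at -0.21, Serpina10, the protein Z-dependent protease inhibitor, at 0.31, Habp2 at -0.22 and Hgfac at -0.19, with adjusted p between 0.438 and 0.625 in limma. Of 26 other complement genes, 16 were measured and 0 passed, with 6 above and 10 below control. With those 4 arrays left out, 12 of the 23 and 5 of the 16 lay above control. Among the complement genes the smallest p values belonged to Cd59a, an inhibitor of the membrane pore, at -0.20, Colec10 at -0.21, Cr1l at -0.18 and Cfhr2 at -0.11, with adjusted p between 0.577 and 0.711 in limma.

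Known regulators of liver genes mostly lay above control at 1.0%, and none passed against control. Of 15 liver transcription factors and cytokine signalling genes, 14 were measured and 13 lay above control at 1.0%, with a median of 0.36. Of all genes, 51.6% lay below control at that dose. Foxa3 differed by 0.83, Cebpb by 0.80, Hnf4a by 0.37 and the IL-1 receptor gene Il1r1 by 1.28, with adjusted p between 0.449 and 0.613 in limma. At 0.5% against 0.1%, Onecut1, a liver transcription factor gene, was higher by 2.67 (SE 0.50, adjusted p = 0.0303 in limma), with an adjusted p of 0.0864 without the 4 arrays and from 0.0134 to 0.0849 with each array left out in turn. Of 22 acute phase genes, 22 were measured and 19 lay above control at 1.0%, with a median of 0.60 and 0 passing. Socs3, a feedback inhibitor of cytokine signalling, had a slope of 2.45 per 1.0% quercetin (SE 0.47, adjusted p = 0.0343 in limma). Its steps were uneven, at -0.19 from control to 0.1%, 2.19 from 0.1% to 0.5% and 0.11 from 0.5% to 1.0%. With all arrays Socs3 was the only one of the 22 to pass for the slope, where 0.0989% of all genes passed. Without the 4 arrays Socs3 and Mt1 passed, and the share of all genes in that fit is not given here. The adjusted p of the Socs3 slope in limma was 0.0420 without the 4 arrays, and it ran from 0.0162 to 0.0705 with each array left out in turn. It was 0.128 without normalization, 0.0564 with arrays centred, 0.0838 with the replicate number as a block and 0.0799 with 5 arrays left out. Socs3 also differed by 2.30 between 1.0% and 0.1% (SE 0.47, adjusted p = 0.0371 in limma). The adjusted p of this difference in limma was 0.0562 without the 4 arrays, 0.130 without normalization and 0.0580 with arrays centred. It was 0.0883 with the replicate number as a block and 0.116 with 5 arrays left out. With each array left out in turn it ran from 0.0167 to 0.0950. The summed intensity of the acute phase list ran from 26177 to 29258 in control livers, from 26770 to 29986 at 0.1%, from 25270 to 55733 at 0.5% and from 28421 to 50055 at 1.0%. With the 4 arrays left out, 12 of 14 regulators and 18 of 22 acute phase genes lay above control at 1.0%, with medians of 0.17 and 0.37. No test of these lists against the 35 genes was made.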

How the data were processed

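Per the labels' protocols, total liver RNA of each mouse was labelled as biotin cRNA and hybridized to 1 Affymetrix array. The authors deposited linear intensity values for 45101 probe sets on 24 arrays, with software, background correction and probe summary not given in the sources used here. Raw array medians differed, and the number of arrays limits precision.

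Intensities were taken as log2(value + 1) and quantile-normalized, and differences on this scale understate changes of dim genes. The 34945 probe sets with 1 symbol in the platform annotation were reduced to 18193 genes by highest mean. The 932 with several symbols and 13 control probe sets were left out.

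All 24 arrays entered 1 fit in limma 3.58.1 under R 4.3.3 (lmFit and eBayes, two-sided) with a Benjamini-Hochberg adjusted p of 0.05 over all genes. The fit was tested on simulated data in which each gene varied independently. That test does not cover arrays in which many genes shift together, such as the 4 that stood apart. Members and lists were chosen with earlier results of these data known, and so was quantile normalization as the main scaling. The text gives every group's values for members passing, the 3 with the smallest p at each dose, for any difference and for the slope, and the first of each role group by the test of any difference. Of the other lists it names at most 4 genes with the smallest p at 1.0%. Onecut1, Socs3 and Mt1 were named because they passed in another comparison or setting, and Fga, Fgb and Fgg were named outside this rule.

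Alternatives were no normalization, centring, a pseudocount of 16, the mean of all probe sets, a filter on dim genes, eBayes options, array weights, fits of 2 groups, the replicate number as a block, sets of replicates, each array left out and 4 arrays left out. Leaving out 5 arrays was chosen after seeing the data.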

Additional observations from a re-analysis of the deposited data

Results flagged for a closer look

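In 8 of 140 groups of 6 livers, 1 liver stood farther from its nearest neighbour than Dixon's critical value of 0.625 times the group's range allows. Chance flags about 1 in 20 groups. In the 0.1% group, F7 was low at 7.60 in replicate 4 (nearest 7.96), F9 at 9.53 in replicate 1 (nearest 9.73) and C4bp at 10.71 in replicate 6 (nearest 10.85). In the 0.5% group, Plg was low at 11.90 and C8g at 11.29 in replicate 6 (nearest 12.07 and 11.49), 1 of the 4 arrays set apart by the first principal component. In the same group Kng1 was high at 11.86 in replicate 1 (nearest 11.60) and Masp1 at 8.77 in replicate 5 (nearest 8.52). In the control group, Cfp was low at 4.26 in replicate 2 (nearest 5.03), the array with the lowest raw median, 4.78 in linear intensity.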

How the results depend on the processing

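The count of members passing was 0 for each comparison under each alternative run, except that 1 member, F10, passed for the slope with a pseudocount of 16, with only the brighter genes tested and with an intensity trend and robust eBayes. The median difference of the members moved to 0.114 at 0.1% without normalization, to 0.136 and 0.050 at 0.5% without normalization and with arrays centred, to -0.141 at 1.0% with arrays centred, and for the slope to -0.012 without the 4 arrays, against -0.097 with them. At 0.5%, F12 reversed to 0.027 and F10 to 0.088 without normalization, and F10 to 0.0017 with arrays centred. With each array left out in turn, the counts stayed at 0 to 0 and the medians ran from 0.0067 to 0.045 at 0.1%, -0.082 to -0.038 at 0.5%, -0.088 to -0.043 at 1.0% and -0.115 to -0.064 for the slope. The lowest value at 0.1% came without replicate 4 of that group, and the weakest slope without replicate 4 of the 1.0% group. Leaving out a 5th array, replicate 2 at 1.0%, gave a median of -0.014 at 1.0%. Of 13 other probe sets of 8 members, 4 lay on the other side of control at 0.1%, 4 at 0.5% and 2 at 1.0%, none at an unadjusted p under 0.05. The cause of these changes was not tested. 

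With the replicate number as a block, 0 members passed in each comparison, and 2 members at 0.5%, 1 at 1.0% and 2 for the slope had an unadjusted p under 0.05, against 7.71%, 8.95% and 10.9% of all genes in that fit. Arrays of different diets were also correlated on the deviations of each gene from its average, not on levels. For same-numbered arrays the median correlation was 0.0039 over 36 pairs (-0.064 to 0.111). For arrays of different number it was 0.00018 over 180 pairs (-0.099 to 0.172). Of 24 arrays, 4 correlated best with an array of their own number, and the count expected by chance was not worked out. These correlations cannot show how the mice were numbered.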
